A study of Homo sapiens with 8 samples.

Results

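The measurements described here are those of the immunoglobulin chains and the J chain in human myeloma cells: the kappa constant region gene IGKC, the lambda constant region gene IGLC1, the lambda variable segment IGLV1-44, the mu heavy chain constant region gene IGHM, and JCHAIN. Every probe set whose array annotation names at least 1 of these 5 genes was taken, together with probe sets that carry several immunoglobulin symbols. That gave 5 of 19775 named genes, with 83 of the 54675 probe sets on the array. Of the 83, 29 carried 1 symbol. Another 50 carried a member gene among several symbols, and 4 carried several immunoglobulin symbols with no member gene among them. The 54 probe sets with several symbols may cross-hybridise, that is, report more than 1 transcript. By chain, 38 probe sets named heavy chain genes, 19 kappa genes, 25 lambda genes and 1 JCHAIN. Probe sets of a chain overlap in what they detect and are not independent measurements of it.

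The samples were 8 cultures of 2 established multiple myeloma lines, JJN3 and RPMI-8226, each on 1 array. Each line was given lentivirus with shRNA against XBP1, lentivirus with shRNA against IRE1 (the protein of ERN1), lentivirus with non-targeting (NT) shRNA, or was left uninfected. Infected cultures were exposed to virus supernatant at 30 to 50% for 16 h in polybrene (8 µg/mL). All cultures, with the uninfected ones, were collected at 96 h. There was 1 culture per line and treatment, so each treatment has n = 2 (the 2 lines) and each line n = 4 (the 4 treatments), and p-values measure only the spread between these cultures. Whether infected cells were selected or cloned is not given in the sources used here.

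An antibody is built from a pair of heavy chains and a pair of light chains, and the light chains of an antibody are either kappa or lambda. A B cell rearranges its light chain loci so that, as a rule, it makes light chains of a single type, and a plasma cell and the myeloma that grows from it keep that choice. The J chain joins IgM into pentamers and IgA into dimers. Plasma cells load these chains into the endoplasmic reticulum (ER) in bulk; IRE1, a sensor in the ER membrane, splices the XBP1 mRNA, and the spliced product is a transcription factor that expands the secretory machinery. In mouse plasma cells without Xbp1, the RNase of IRE1 has been reported to cut the mRNA of the secretory mu heavy chain. RPMI-8226 is known to secrete lambda light chains.

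Values are log2 signals centred on the median of each probe set over the 8 arrays, so they give differences between arrays and no level. A probe set's value in a line therefore does not say whether the chain was detected there, and probe sets are not ranked against each other by level. As a check of the labels, XBP1 (200670_at) was 45.6% of its NT value in JJN3 and 65.9% in RPMI-8226 on the XBP1 shRNA arrays. With IRE1 shRNA it was 16.8% of NT in JJN3 and 64.7% in RPMI-8226. The IRE1 gene ERN1 (235745_at) was 53.9% of its NT value in JJN3 but 129.8% in RPMI-8226 with IRE1 shRNA, and 42.9% and 36.7% with XBP1 shRNA. A fall of ERN1 was thus not seen on the RPMI-8226 array labelled IRE1 shRNA, and ERN1 was lower than NT on both arrays labelled XBP1 shRNA. The arrays are therefore named by their labels throughout, and a label does not show that its target was silenced. Spiked-in poly-A controls (24 probe sets) had their highest median within each line on the array labelled XBP1 shRNA, 0.19 in JJN3 and 0.43 in RPMI-8226, against -0.05 and 0.25 on the NT shRNA arrays.

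Among the 5 member genes the largest differences between the lines were in light chain probe sets. Comparing JJN3 with RPMI-8226 over the 4 treatments, 57 of the 83 probe sets passed an adjusted p of 0.05 (limma with treatment as a block, Benjamini-Hochberg over all 54675 probe sets), 9 higher and 48 lower in JJN3. That is 68.7% of the members, beside 56.0% of all probe sets on the array called in this comparison (30636). With each array centred on its median, 45 members (9 higher and 36 lower) and 27201 of all probe sets were called. Quantile normalisation gave 45 and 27089. The excess of the members over all probe sets was smaller under either scaling, so its size depends on the scaling. The array median of all probe sets was positive throughout RPMI-8226 and negative throughout JJN3. The median difference was -0.34 over the members and -0.14 over all probe sets (-0.25 and -0.05 after centring each array). The values of the lines did not overlap for 58 of the 83 members (69.9%) and for 48.7% of all probe sets. A difference of at least 4-fold, that is 2 on the log2 scale, was seen for 15 members and for 2478 probe sets in all (4.53%). These 15 were 6 lambda probe sets, lower in JJN3, 7 kappa probe sets, higher in JJN3, 1 heavy chain probe set, higher in JJN3, and JCHAIN, lower in JJN3. The 3′ minus 5′ difference of the actin control probe sets, a sign of RNA quality, also separated the lines, at 0.133 to 0.417 on the JJN3 arrays and -0.614 to -0.432 on those of RPMI-8226 (centred log2). That of GAPDH lay at 0.0037 to 0.0459 and -0.0834 to 0.0618. Their part in the line differences was not tested.

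**Figure D1:**
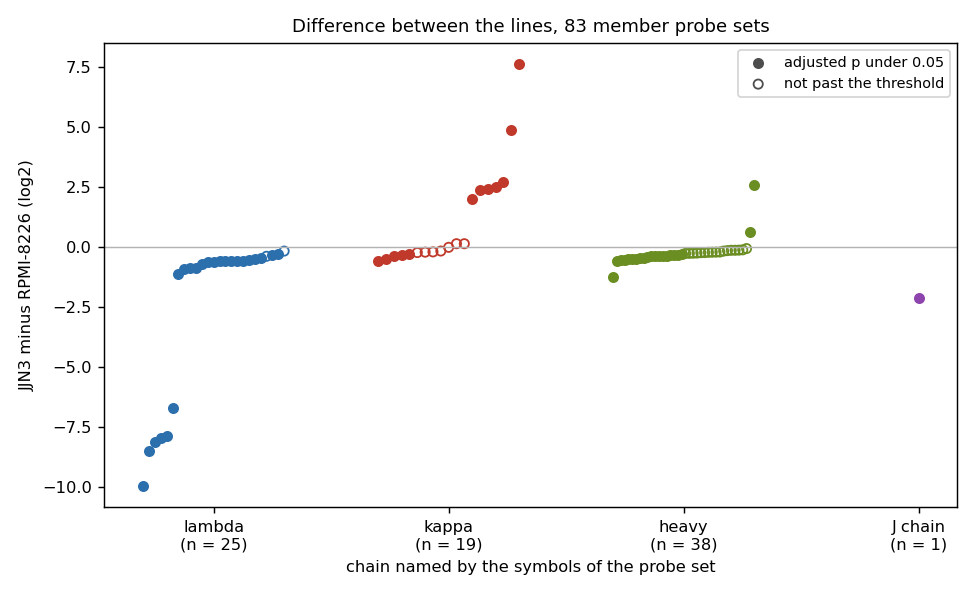
Difference between JJN3 and RPMI-8226 (log2, y axis) for each of the 83 probe sets, grouped by the chain their symbols name and sorted within it. Filled points passed an adjusted p of 0.05; 6 lambda points lie at -6.71 or below and 7 kappa points at 2.0 or above, while most others lie close to 0.

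For IGLC1, which encodes a lambda constant region, 214677_x_at had -4.69, -5.31, -5.73 and -5.30 in JJN3 with XBP1 shRNA, IRE1 shRNA, NT shRNA and no infection, against 4.72, 4.69, 4.71 and 4.7 in RPMI-8226. The lines were far apart, and the RPMI-8226 arrays lay within 0.03 of each other while those of JJN3 spanned 1.04. The difference was -9.96 ± 0.15 (SE), 998-fold and the second largest of the whole table (adjusted p = 8.1e-10, limma). The JJN3 NT shRNA value, -5.73, is the lowest of the whole table. A ceiling or floor of the signal cannot be seen in centred values, so the fold is one of array signal. A further IGLC1 probe set, 209138_x_at, had -4.83, -4.05, -4.47 and -4.16 in JJN3, in the same order of treatments, against 4.05, 4.09, 4.12 and 4.21 in RPMI-8226. It was 361-fold lower in JJN3 (-8.50 ± 0.13).

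IGLV1-44 is a variable segment, the part of a lambda chain that contacts antigen. Its probe set 215379_x_at had -3.90, -4.02, -4.00 and -4.04 in JJN3, against 3.96, 3.91, 4.08 and 3.90 in RPMI-8226, with no overlap. The difference was -7.96 ± 0.098, or 248-fold. The remaining 3 large lambda probe sets carry several symbols. They were 215121_x_at (IGLV1-44 and IGLC1, -8.10 ± 0.11), 217148_x_at (IGLJ3 and IGLC1, -7.89 ± 0.12) and 216984_x_at (IGLJ3, IGLV1-44, IGLC1 and the unrelated gene CKAP2, -6.71 ± 0.14). All 6 large lambda probe sets end in _x_at, Affymetrix's mark for probes that match several sequences.

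Over the whole lambda group, 23 of 25 probe sets passed as lower in JJN3 and 0 as higher (21 and 0 with each array centred on its median or quantile normalised). Of all probe sets on the array 56.0% passed, 12458 higher and 18178 lower. Outside the 6 large lambda probe sets the differences were small. The next in size was 217138_x_at (IGLC1), with -0.81, -0.43, -0.63 and -0.78 in JJN3, against 0.49, 0.43, 0.46 and 0.45 in RPMI-8226 (-1.12 ± 0.11). The probe sets chosen to lead each gene without regard to their values, 211655_at for IGLC1 and 216573_at for IGLV1-44, were among the small ones, at -0.30 ± 0.10 (adjusted p = 0.0312) and -0.58 ± 0.11 (0.00234). The call for 211655_at was kept in 4 of its 12 alternatives. The gene-level result thus depends on which probe set stands for the gene.

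The kappa group was divided: 7 of 19 probe sets were higher in JJN3, 5 lower and 7 did not pass, beside 56.0% of all probe sets called. The 7 higher kappa probe sets had the large differences. The probe set 211643_x_at, annotated to IGKC and the kappa locus IGK, had 3.46, 4.42, 4.05 and 4.21 in JJN3 with XBP1 shRNA, IRE1 shRNA, NT shRNA and no infection, against -3.46, -3.67, -3.63 and -3.66 in RPMI-8226. The lines did not overlap, and the difference was 7.64 ± 0.17, or 199.8-fold (adjusted p = 4.09e-09). A second probe set of IGK and IGKC, 211644_x_at, had 1.93, 3.0, 3.04 and 2.95 in JJN3, against -2.49, -1.93, -2.14 and -2.08 in RPMI-8226, a difference of 4.89 ± 0.13 or 29.7-fold.

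Annotated to IGKC alone, 214669_x_at had 1.09, 1.55, 1.41 and 1.53 in JJN3, against -1.74, -1.09, -1.10 and -1.28 in RPMI-8226, with a difference of 2.70 ± 0.10 or 6.49-fold. Besides these, 221671_x_at, 221651_x_at, 224795_x_at and 214836_x_at were higher in JJN3 by 2.52, 2.42, 2.36 and 2.0. The 7 large kappa probe sets also all end in _x_at, as 52 of the 83 members do. Of the other 12 kappa probe sets 5 were lower in JJN3 (3 with each array centred or quantile normalised) and 7 did not pass. The lead of IGKC, 211146_at, was among the lower, with -0.17, -0.21, -0.09 and -0.54 in JJN3, against 0.25, 0.12, 0.56 and 0.09 in RPMI-8226 (-0.51 ± 0.10, adjusted p = 0.00301). For IGKC, then, the sign of the difference turns with the probe set, and each of the 7 differences of 2 or more is positive.

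Of the 38 heavy chain probe sets 1 differed at least 4-fold between the lines. In all, 2 were higher in JJN3, 19 lower and 17 did not pass. The count of lower ones was 11 with each array centred or quantile normalised, and 9 without either uninfected array. The median was -0.27 (-0.18 after centring each array). Of all probe sets on the array 56.0% were called, 12458 higher and 18178 lower in JJN3. The share of heavy chain probe sets called is close to that of all probe sets.

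The large difference was that of 211430_s_at, annotated to IGHM, to the gamma heavy chain genes IGHG1 and IGHG2, and to the microRNA genes MIR8071-1 and MIR8071-2. It had 0.72, 1.67, 1.90 and 1.93 in JJN3 with XBP1 shRNA, IRE1 shRNA, NT shRNA and no infection, against -1.86, -0.72, -0.72 and -0.85 in RPMI-8226. All JJN3 values lay above all RPMI-8226 values, with the array labelled XBP1 shRNA lowest in each line. The difference was 2.59 ± 0.11, or 6.04-fold (adjusted p = 1.22e-07). The other heavy chain probe set higher in JJN3, 228518_at, names IGHM, IGHG1 and the same microRNA genes and differed by 0.63 ± 0.10 (adjusted p = 0.000829).

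The 5 probe sets annotated to IGHM alone did not share that direction. They differed by -0.35 to -0.21, and 2 of the 5 passed. Of these, 209374_s_at had -0.17, -0.19, -0.11 and -0.28 in JJN3, against 0.14, 0.12, 0.11 and 0.25 in RPMI-8226 (-0.34 ± 0.10, adjusted p = 0.0198). The lead of IGHM, 212827_at, had -0.35, -0.04, -0.05 and -0.02 in JJN3, against 0.02, 0.05, 0.22 and 0.06 in RPMI-8226, and did not pass (-0.21 ± 0.10, adjusted p = 0.115). Which of its annotated genes 211430_s_at reports cannot be told from these values. The largest lower difference was that of 211868_x_at, which names 8 heavy chain symbols: -1.46, -0.80, -0.90 and -0.30 in JJN3, against 0.50, 0.42, 0.30 and 0.37 in RPMI-8226 (-1.26 ± 0.18).

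**Figure D2:**
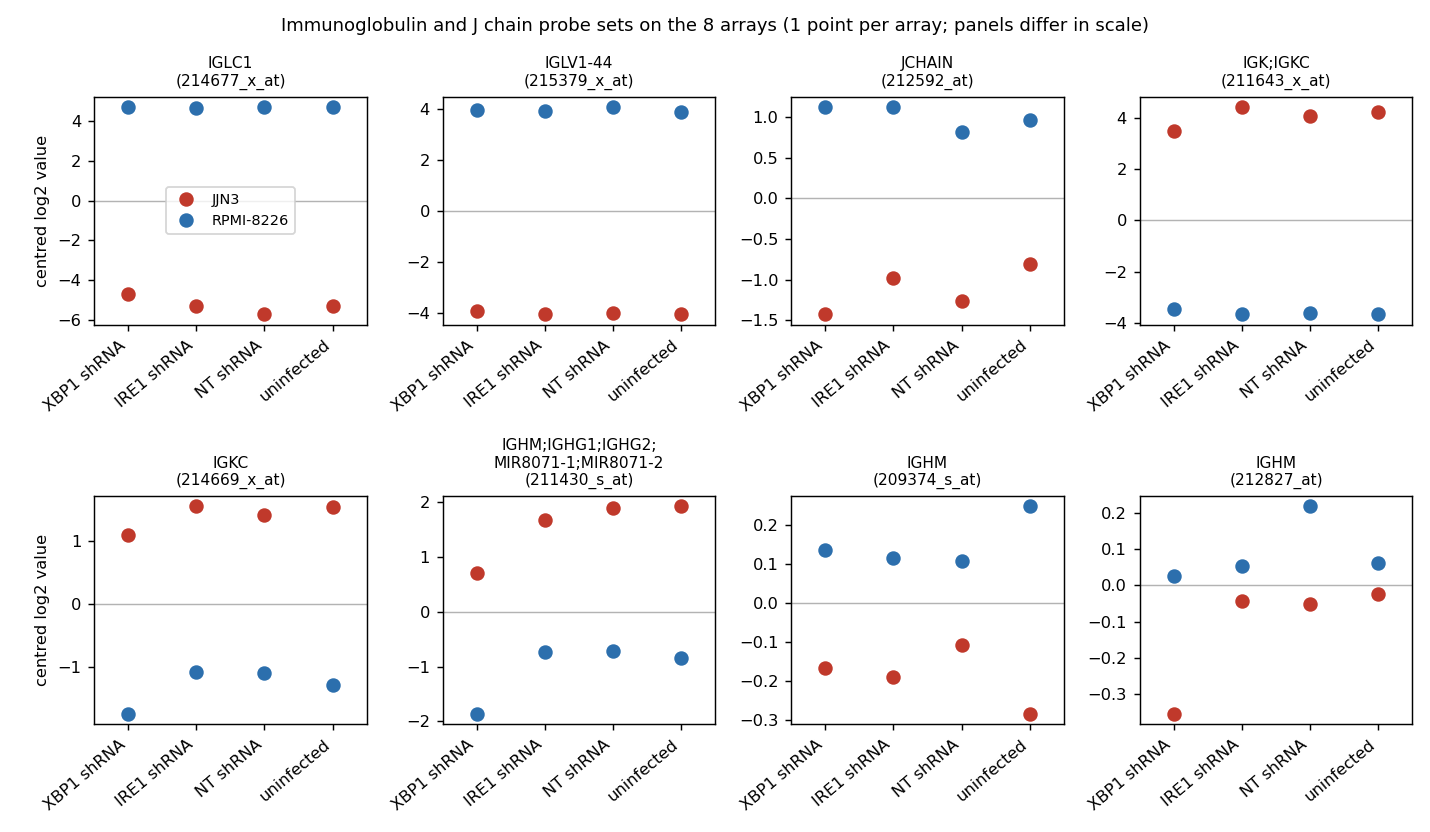
Centred log2 value (y axis) of 8 probe sets on each of the 8 arrays, by the treatment on the label (x axis), with JJN3 in red and RPMI-8226 in blue; panels differ in scale. IGLC1, IGLV1-44 and JCHAIN lie lower in JJN3 and the kappa probe sets and 211430_s_at higher. The XBP1 shRNA point of 211430_s_at is the lowest of its line in both lines, at 0.72 in JJN3 and -1.86 in RPMI-8226.

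JCHAIN encodes the small joining chain of polymeric IgM and IgA and has 1 probe set on the array, 212592_at, with no other symbol. It had -1.43, -0.97, -1.26 and -0.81 in JJN3 with XBP1 shRNA, IRE1 shRNA, NT shRNA and no infection, against 1.12, 1.12, 0.81 and 0.96 in RPMI-8226. The lines did not overlap, and the values of JJN3 were spread over 0.62, those of RPMI-8226 over 0.31. JCHAIN was 4.35-fold lower in JJN3 (-2.12 ± 0.13, adjusted p = 1.68e-06). In a bulk culture fewer cells with a transcript and less of it per cell cannot be told apart.

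JCHAIN is also the member with a promoter in the RefSeq table used here (1 of the 5 genes matched), and its 250 bases upstream of the transcription start are shown because this gene differed between the lines as a single, unambiguous probe set. They lie at chr4:70666509-70666758 of GRCh38.p14 on the minus strand and are printed 5′ to 3′. Capitals mark the match to ATGCAAA, the first 7 letters of the octamer motif to which OCT factors and their coactivator POU2AF1 bind at immunoglobulin promoters.

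JCHAIN: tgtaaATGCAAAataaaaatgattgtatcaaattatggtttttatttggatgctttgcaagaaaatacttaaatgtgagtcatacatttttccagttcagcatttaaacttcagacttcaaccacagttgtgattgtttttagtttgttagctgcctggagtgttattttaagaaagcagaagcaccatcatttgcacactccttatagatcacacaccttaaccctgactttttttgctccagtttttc

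Both strands were searched. ATGCAAA matched at 1 place, starting at position -245 from the start site, and 3.94% of 35116 promoters of the same length hold it. The last 7 letters of the octamer, TGCAAAT, were not searched. Their reverse complement, atttgca, also stands in the printed bases, nearer the start site, and is not marked. The full octamer ATGCAAAT, which contains those letters, had 0 matches (1.63% of promoters hold it). TGACGTGG, an unfolded protein response element that XBP1 binds, had 0 matches (0.612%), as had its core ACGT (29.3%). A match is a description of the letters and not of a bound site.

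Few of these probe sets passed the threshold with silencing. In the fits of single treatments with line as a block, the error is the spread left after line and treatment. Where the shRNAs and the controls are pooled, differences between the shRNAs and between the controls also enter the error. This holds for silenced minus control and for the silencing effect by line, so their counts are not directly comparable with those of the single treatments. With the arrays labelled XBP1 shRNA against NT shRNA, 1 of 83 members passed, a share close to the 1.21% of all probe sets. That member was 211430_s_at, which fell by 1.16 ± 0.15 in log2 units (limma with line as a block, adjusted p = 0.0155). The difference was -1.19 in JJN3 and -1.14 in RPMI-8226. Against uninfected cells it was -1.21 and -1.01, and -1.11 in the fit (adjusted p = 0.0152). The call was lost without either NT shRNA array (adjusted p = 0.113 without JJN3 and 0.146 without RPMI-8226) and without the JJN3 array labelled XBP1 shRNA (0.0506), as well as without the line as a block, while the difference stayed between -1.18 and -1.03 over 15 alternatives. The poly-A control median was also highest on the arrays labelled XBP1 shRNA (0.19 in JJN3 and 0.43 in RPMI-8226, against -0.05 and 0.25 with NT shRNA), and its part in this result was not tested.

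Annotated to the same genes except IGHG2, 228518_at had 0.08 with XBP1 shRNA and 0.63 with NT shRNA in JJN3, and -0.41 and -0.08 in RPMI-8226. Its difference was -0.44 ± 0.15 and did not pass (adjusted p = 0.207). The 5 probe sets of IGHM alone differed by -0.25 to -0.02, none past the threshold (limma; 0 with an unadjusted p under 0.05). The fall of 211430_s_at is therefore not matched by a call in the probe sets that name the mu chain alone.

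**Figure D3:**
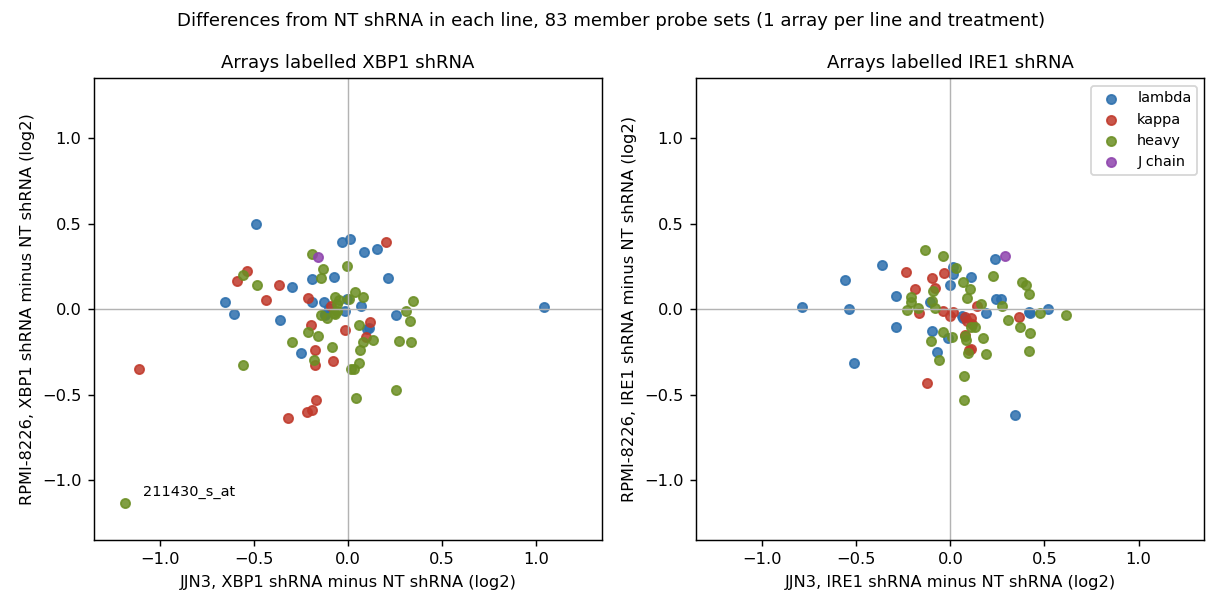
Difference from the NT shRNA array of the same line (log2) for the 83 probe sets, JJN3 on the x axis and RPMI-8226 on the y axis, for the arrays labelled XBP1 shRNA (left) and IRE1 shRNA (right); colours give the chain. The probe set 211430_s_at stands alone at lower left with XBP1 shRNA (-1.19, -1.14) and lies near 0 with IRE1 shRNA (-0.23, -0.0044).

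The kappa probe sets that were high in JJN3 had negative fitted differences from NT shRNA with XBP1 shRNA, and none passed the threshold. All 7 of the large ones were below NT shRNA in the fit, with a median of -0.39. An unadjusted p under 0.05 was found for 5 of the 7, and for 7490 of all 54675 probe sets. On the array labelled XBP1 shRNA the large kappa probe sets had their lowest value of the line for 7 of 7 in JJN3 and for 6 of 7 in RPMI-8226. These probe sets share targets, so this is closer to 1 observation than to 7. The difference was -0.73 ± 0.19 for 211644_x_at (adjusted p = 0.115), from -1.11 in JJN3 and -0.35 in RPMI-8226. For 214669_x_at, of IGKC alone, it was -0.48 (adjusted p = 0.176), from -0.32 in JJN3 and -0.64 in RPMI-8226. By line, 211643_x_at had -0.59 in JJN3 and 0.17 in RPMI-8226. The falls of 214836_x_at, 221651_x_at, 221671_x_at and 224795_x_at were larger in RPMI-8226, where these probe sets are low. They were -0.60 to -0.33 there and -0.22 to -0.17 in JJN3. In the whole kappa group 17 of 19 were negative, with a median of -0.19, where all probe sets had a median of 0.00067 and 49.9% were negative. These 19 also overlap in what they detect and are not independent.

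The large lambda probe sets gave a median of -0.04 with XBP1 shRNA, and none of the 6 passed. In RPMI-8226, where they are high, they moved from NT by -0.12 to 0.04. Whether they were near a signal ceiling there, or near a floor in JJN3, cannot be seen in centred values. In JJN3, where they are low, they moved by -0.65 to 1.04, the last for 214677_x_at (0.01 in RPMI-8226; 0.53 in the fit, adjusted p = 0.329). JCHAIN had opposite signs in the lines, -0.16 in JJN3 and 0.31 in RPMI-8226, for a difference of 0.07 ± 0.19 (adjusted p = 0.926). Over all 83 members 55 were negative, the median was -0.05, and 8 had an unadjusted p under 0.05. Of all 54675 probe sets 7490 had an unadjusted p that low.

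With the arrays labelled IRE1 shRNA against NT shRNA none of the 83 members passed (limma), where 0.0183% of all probe sets did. On the RPMI-8226 array with this label ERN1 was 129.8% of its NT value, so a fall of ERN1 is not shown there. An unadjusted p under 0.05 was found for 0 members and for 5172 of all 54675 probe sets. The differences ran from -0.41 for 217258_x_at of IGLV1-44 (adjusted p = 0.541) to 0.30 ± 0.19 for JCHAIN (0.697). JCHAIN was 0.29 in JJN3 and 0.31 in RPMI-8226; against uninfected cells its fitted difference was -0.0021. For 211430_s_at the difference was -0.12 ± 0.15, and the 7 large kappa probe sets lay between 0.01 and 0.16.

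The shRNA arrays were also set against each other, a comparison that shares the arrays labelled XBP1 shRNA with the first. IRE1 shRNA minus XBP1 shRNA called 1 of 83 members, beside 1.89% of all probe sets: 211430_s_at, higher with IRE1 shRNA by 1.04 ± 0.15 (adjusted p = 0.016). It was called in 9 of 14 alternatives. It had 1.67 with IRE1 shRNA and 0.72 with XBP1 shRNA in JJN3, and -0.72 and -1.86 in RPMI-8226. The poly-A control median was -0.10 in JJN3 and -0.03 in RPMI-8226 with IRE1 shRNA, against 0.19 and 0.43 with XBP1 shRNA. That of the hybridisation controls was 0.42 on the JJN3 IRE1 shRNA array and -0.15 to 0.09 on the others. The part of these controls was not tested. For 211644_x_at of kappa the difference was 0.82 ± 0.19 (adjusted p = 0.072) and for 214669_x_at 0.56 (0.104). For JCHAIN it was 0.23.

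Pooling the XBP1 and IRE1 shRNA arrays against the NT and uninfected arrays called none of the members and 0% of all probe sets. An unadjusted p under 0.05 was found for 3 members and for 5081 of all 54675 probe sets. For 211430_s_at the pooled difference was -0.61 ± 0.26 (adjusted p = 0.502) and for JCHAIN 0.03. Infection itself, NT shRNA minus uninfected, called 0 members and 0% of all probe sets (limma). An unadjusted p under 0.05 was found for 1 member, 211146_at of IGKC (0.46, adjusted p = 0.873). The same held for 3048 of all 54675 probe sets. There JCHAIN differed by -0.30, from -0.45 in JJN3 and -0.15 in RPMI-8226. The silencing effect of JJN3 minus that of RPMI-8226 called 0 members and 0% of all probe sets. An unadjusted p under 0.05 was found for 4 members and for 2857 of all 54675 probe sets. The members' values in that comparison ran from -0.68 to 0.68, and JCHAIN was at -0.40.

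The other immunoglobulin probe sets on the array, 35 that name a chain gene outside the 5 members, were read beside the members. Of them 20 were lower in JJN3 and 0 higher, 57.1% beside the 56.0% of all probe sets called (16 and 0 with each array centred or quantile normalised). The largest were 217235_x_at of IGLL5 (-6.07 ± 0.13) and 215946_x_at of IGLL3P (-5.35 ± 0.10), immunoglobulin lambda-like genes whose probe sets also end in _x_at. The rest of the 20, which name IGLJ3, IGLV6-57, IGLL1, IGK, a kappa variable orphon, IGH, IGHD, IGHG1 or IGHA1, lay between -0.92 and -0.30. None of the 35 passed with XBP1 shRNA or with IRE1 shRNA against NT (limma). An unadjusted p under 0.05 was found for 1 with each, beside 7490 and 5172 of all 54675 probe sets.

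Genes that make and handle antibody were read from lists of 87 genes, 82 of them analysed here, each by its most variable probe set. Read that way, 68.8% of all 19775 genes were called between the lines, 1.87% for XBP1 shRNA minus NT shRNA and 2.86% for IRE1 shRNA minus XBP1 shRNA; the choice of probe set favours genes that differ between the lines. For transcription and RNA processing of immunoglobulin genes, 17 genes were measured. In JJN3 8 of these were higher and 5 lower than in RPMI-8226 (76.5% called). The higher ones included ELL2, an elongation factor that favours secretory heavy chain mRNA (2.05 ± 0.13), and BACH2 (1.98). Further ones were IRF4 (1.70) and PRDM1 (1.67), regulators of the plasma cell state, and SPIB (1.61). POU2AF1, the octamer coactivator (1.43), IKZF1 (1.29) and IKZF3 (0.91) were the rest. HNRNPLL, a splicing regulator, was lower (-1.43), as were POU2F2 (-0.57), PAX5 (-0.52), SPI1 (-0.50) and CSTF2 (-0.35). With XBP1 shRNA 1 of the 17 passed: PRDM1, encoding BLIMP1, fell by 1.23 ± 0.19 (adjusted p = 0.0263), from -1.08 in JJN3 and -1.38 in RPMI-8226. That call was kept in 8 of 15 alternatives and lost without either NT shRNA array (adjusted p = 0.168 without JJN3 and 0.18 without RPMI-8226), without either uninfected array (0.0526 each), without the RPMI-8226 array labelled XBP1 shRNA (0.0814), after quantile normalisation (0.0516) and without the line as a block. IRF4 was at -1.06 (adjusted p = 0.0507) and POU2AF1 at -0.65 (0.0894). IRE1 shRNA minus XBP1 shRNA called 5 of the 17, all positive: TCF3 (1.24), IRF4 (1.18), PRDM1 (0.96), ELL2 (0.95) and POU2AF1 (0.82). Removing the line as a block ended all of these calls, as did leaving out either IRE1 shRNA array or the JJN3 XBP1 shRNA array. Most were also lost without the RPMI-8226 XBP1 shRNA array, either uninfected array or either NT shRNA array. Of 14 alternatives the call was kept in 9 for TCF3, 6 for IRF4, 5 for ELL2 and 4 each for PRDM1 and POU2AF1. After quantile normalisation 1 of the 5, TCF3, was kept. With IRE1 shRNA against NT none of the 17 passed (limma).

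For folding and assembly in the ER, 21 genes were measured, of which 10 were higher and 6 lower in JJN3 (76.2% called). ERO1B, an oxidase that feeds disulfide formation (-2.47 ± 0.18), MZB1, an ER protein that aids IgM assembly (-2.22), and FKBP11, a prolyl isomerase (-2.07), were lower. HSP90B1, the chaperone GRP94, was higher (1.59). With XBP1 shRNA DNAJB9, an ER co-chaperone, fell by 1.25 ± 0.19 (adjusted p = 0.0258) and no other of the 21 passed. That call was kept in 8 of 15 alternatives and lost without any 1 of the NT shRNA, uninfected or XBP1 shRNA arrays (adjusted p of 0.0517 to 0.175) and without the line as a block. MZB1 (-0.85), UGGT1 (-0.84) and SDF2L1 (-0.76) had adjusted p of 0.0611, 0.0573 and 0.0574. The median of the list was -0.18 with XBP1 shRNA and -0.36 with IRE1 shRNA, where none passed. Of 11 genes of quality control and disposal 4 were higher in JJN3, with SEL1L, an adaptor of the ubiquitin ligase HRD1, at 1.5, and 5 lower, with DERL3 at -1.26. None of the 11 passed with either shRNA against NT; HERPUD1 was at -0.88 with XBP1 shRNA (adjusted p = 0.112).

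**Figure D4:**
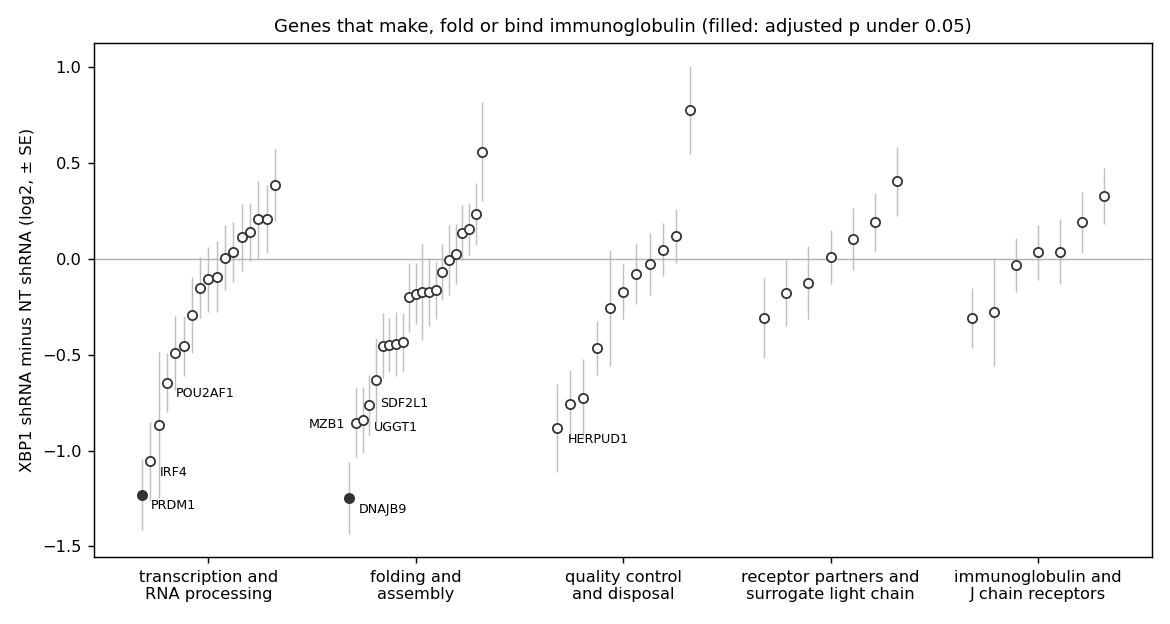
XBP1 shRNA minus NT shRNA (log2, y axis) for genes that make, fold, dispose of or bind immunoglobulin, 1 point a gene with its SE, sorted within each list. Filled points passed an adjusted p of 0.05: PRDM1 at -1.23 and DNAJB9 at -1.25.

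Of 14 receptors and partners 8 were called between the lines (57.1%, beside 68.8% of all genes), and none passed with either shRNA against NT. Of 7 B cell receptor partners and surrogate light chain genes 5 were lower in JJN3, VPREB3 by the most (-1.02), with the signalling chain CD79A at -0.65. Of 7 receptors that bind immunoglobulin or J chain 3 were lower in JJN3. FCMR, the receptor for the Fc part of IgM, differed by -6.13 ± 0.20, and PIGR, which carries J chain-containing antibody across epithelia, by -0.76.

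Of 9 plasma cell markers 5 were higher and 3 lower in JJN3, with CD38 at -4.72; 1, PRDM1, fell with XBP1 shRNA, where the median of the list was -0.70 and that of all probe sets 0.00067. Because values are centred, the presence of these markers cannot be checked. Of 8 T and NK cell markers 4 were lower in JJN3 and none higher, and of 7 myeloid markers likewise 4 and none (1 with each array centred or quantile normalised), where 68.8% of all genes were called. With XBP1 shRNA none of either list passed, and their medians were -0.21 and 0.13. Summed levels, and which of these markers are at 0, cannot be read from centred values, and their part in the results above was not tested.

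Genes whose pattern was most like that of each lead probe set were taken by Pearson's r over the 8 arrays after each line's mean was removed, among 5925 probe sets of 1 gene with a residual SD of at least 0.3. For JCHAIN these were ADGRL1 (0.946), ZNF572 (0.94) and RUNX1T1 (0.939). The lead of IGHM was closest to PPDPF (0.98 and 0.967 with its 2 probe sets) and VEGFC (0.96), and that of IGKC to ENDOD1 (0.95), RHEB (0.897) and SIKE1 (0.896). For IGLC1 they were TMEM182 (0.921), LINC00674 and REEP1, and for IGLV1-44 CD59 (0.971), GSPT1 and MLLT11. The leads vary little within a line (residual SD 0.0885 to 0.206). For 211430_s_at, added after its values were seen, they were CDKAL1 (0.996), NABP2 (0.995) and HADHA (0.994). These are descriptions over 8 arrays that share lines and treatments, and each gene was picked as among the highest of the 5925.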

How the data were processed

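RNA of 8 cultures was hybridised to 8 Affymetrix arrays (biotin label, 1 array per line and treatment). The authors made the deposited values, taken as log2 because RMA returns that scale, with RMA, per the submitters' processing notes, which give no version, log base or centring. In their table all 54675 probe sets are centred at a median of 0 across arrays (to within 1e-05), with a range of -5.73 to 5.45. Depth has no meaning for arrays: their number limits the precision.

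Symbols came from the array's annotation, updated through RefSeq (GRCh38.p14, names only): 41097 had 1 symbol (19775 genes), 1801 several and 11777 were not listed. Of the list genes, 5 were not analysed here. Each list gene was represented by its most variable probe set (SD across arrays). The members and lists were chosen with earlier results of these data known.

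limma 3.58.1 (R 4.3.3; lmFit and eBayes) was run on all 54675 probe sets (two-sided, Benjamini-Hochberg over all probe sets, threshold 0.05) in 7 comparisons, and the scripts were tested on simulated data. The line was the block for treatments and the treatment for lines, because same-numbered samples come from the same line. Across probe sets, the JJN3 minus RPMI-8226 differences of any pair of treatments correlated at 0.897 to 0.929. Every member was named or counted. The lead probe set of a gene was chosen without its values: 1 symbol before several, then the suffix _at before _a_at, _s_at and _x_at, then the lowest number. From the lists, genes past the threshold with silencing were named, while between the lines not every called gene was. From other immunoglobulin probe sets, those past the threshold were named or counted. The 3 most alike of each lead were named. Alternatives were array-median centring, quantile normalisation, robust eBayes, the upper part of the table by SD, 1 probe set a gene, other probe sets for the leads, other controls, no block, and each array left out.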

Additional observations from a re-analysis of the deposited data

Results flagged for a closer look

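In each line the 4 arrays of every member were examined for a value whose gap to the nearest other, over the range of the 4, exceeded Dixon's critical value. That held for 12 of 166 groups of 4 (7.23%), where chance gives about 1 in 20; 5 of the 12 were arrays labelled XBP1 shRNA, 3 IRE1 shRNA, 1 NT shRNA and 3 uninfected.

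The arrays labelled XBP1 shRNA stood low for 211430_s_at in RPMI-8226 (-1.86, nearest -0.845), for the kappa probe sets 221651_x_at (-1.62, nearest -1.12) and 224795_x_at (-1.55, nearest -1.09) in RPMI-8226 and 211644_x_at in JJN3 (1.93, nearest 2.95), and for the IGHM probe set 212827_at in JJN3 (-0.353, nearest -0.0529). These arrays also had the highest poly-A control median of their line, and its part was not tested.

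The arrays labelled IRE1 shRNA stood apart for 217236_x_at in JJN3 (-0.0492, highest), 211639_x_at in RPMI-8226 (0.0195, lowest) and 234366_x_at in RPMI-8226 (0.49, highest). The NT shRNA array of RPMI-8226 was highest for 214777_at of IGKC, at 0.317. Uninfected arrays stood apart for 215121_x_at in RPMI-8226 (3.78, lowest), 216573_at of IGLV1-44 in RPMI-8226 (0.132, lowest) and 216430_x_at of IGLV1-44 in JJN3 (-0.169, highest).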

How the results depend on the processing

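The counts of members called equalled the main count or kept within 1.5 times of it in 92 of 103 alternatives. These include comparisons with 0 called in the main fit, where 0 counts as kept. In 9 alternatives the count was weaker, all in XBP1 shRNA minus NT shRNA or IRE1 shRNA minus XBP1 shRNA, and in 2 it was stronger. Without a replicate block (the line) 0 members passed for XBP1 shRNA minus NT shRNA and 0 for IRE1 shRNA minus XBP1 shRNA (main 1 each), since line differences then enter the error. For JJN3 minus RPMI-8226 the block taken out was the treatment, and 56 members were then called (main 57). Without the line as a block 0 were called, as before, in the other comparisons it could be taken out of. Quantile normalisation gave 0 for IRE1 shRNA minus XBP1 shRNA, cause not tested. With the arrays labelled XBP1 shRNA alone as the silenced arm, silenced minus control called 1 member, 211430_s_at (-1.14, adjusted p = 0.00732). Leaving out an array gave 42 to 49 members for JJN3 minus RPMI-8226, 0 to 1 for XBP1 shRNA minus NT shRNA, 0 to 2 for IRE1 shRNA minus XBP1 shRNA and 0 to 0 for the other 4 comparisons. XBP1 shRNA minus NT shRNA gave 0 without either NT shRNA array or the JJN3 XBP1 shRNA array. IRE1 shRNA minus XBP1 shRNA gave 0 without either IRE1 shRNA array or the JJN3 XBP1 shRNA array, and 2 when RPMI-8226 XBP1 shRNA was left out. For single probe sets 614 values kept direction and side of the threshold, 18 gained and 23 lost a call, and 24 changed sign. Of the changes of sign, JCHAIN in silenced minus control turned to -0.035 and -0.0164 without the RPMI-8226 or JJN3 NT shRNA array, -0.0059 and -0.0159 without either IRE1 shRNA array, -0.0034 when RPMI-8226 XBP1 shRNA was left out, -0.117 against uninfected arrays alone and -0.0796 with XBP1 shRNA alone (0.166 without the JJN3 uninfected array, and 0.187 at the highest, against NT shRNA arrays alone). For XBP1 shRNA minus NT shRNA it turned to -0.209 when RPMI-8226 XBP1 shRNA was left out (0.353 when that of JJN3 was) and to -0.231 against uninfected cells, for IRE1 shRNA minus NT shRNA to -0.0021 against uninfected cells, and for IRE1 shRNA minus XBP1 shRNA to -0.0517 when JJN3 XBP1 shRNA was left out (0.51 when that of RPMI-8226 was). The probe set 211430_s_at turned to 0.0131 for IRE1 shRNA minus NT shRNA without the JJN3 IRE1 shRNA array (-0.25 without that of RPMI-8226) and to -0.075 for NT shRNA minus uninfected without the RPMI-8226 uninfected array (0.172 without that of JJN3). In place of the lead probe set, JJN3 minus RPMI-8226 turned positive for IGHM with 211430_s_at (2.59) and 228518_at (0.63), and for IGKC with 211643_x_at (7.64), 211644_x_at (4.89), 214669_x_at (2.70), 221671_x_at (2.52), 221651_x_at (2.42), 224795_x_at (2.36), 214836_x_at (2.0), 214768_x_at (0.14) and 215176_x_at (0.14). Where no cause is given it was not tested. No signal over background can be given from centred values.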
